A study of Homo sapiens with 8 samples.

Results

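The WNT ligands, their receptors and their secreted antagonists were examined in ATAC-seq peak lists of HEK293T cells, a transformed human embryonic kidney line. The list holds 43 of the 19962 protein-coding genes on chromosomes 1 to 22 and X, chosen by gene name and not by any measured value. It comprises 19 WNT ligands, 10 Frizzled receptors, the co-receptors LRP5 and LRP6, the receptors ROR1 and ROR2, 6 genes of the SFRP family with WIF1, and 4 DKK genes. Peaks were assigned to a member when they overlapped its gene body or lay within 1 kb of one of its annotated transcription start sites in GENCODE 44 (GRCh38). The 4 stable lines had each received EZH2 by lentivirus, namely wild-type EZH2 (WT) or a version carrying Y641F, A677G or the double change H689A/F667I. Each line gave 2 libraries. EZH2 is the catalytic subunit of Polycomb repressive complex 2, which methylates H3K27. By the study's classification Y641F and A677G gain function (GOF), whereas H689A/F667I loses it (LOF). The control line is therefore itself an EZH2 WT line made the same way, the host cells keep their own EZH2 gene, and each genotype is 1 line. According to the study's methods the infected cells were selected with blasticidin to give monoclonal populations and the replicates are independent biological replicates, so the spread between replicates does not include the spread between independently made lines.

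WNT proteins are secreted lipid-modified ligands that bind Frizzled receptors. With LRP5 or LRP6 the bound complex stabilises β-catenin, while ROR1 and ROR2 serve as receptors for WNT5A-type signalling that does not act through β-catenin. SFRP proteins and WIF1 bind WNTs outside the cell, and DKK1, DKK2 and DKK4 block LRP5 and LRP6. Many of these genes are developmental regulators with CpG-rich promoters, a class on which Polycomb complexes are often found.

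The files give peaks and not reads, so read depth is unknown and the number of peaks is the only measure of yield. It ranged from 26350 in Y641F replicate 1 and 36598 in Y641F replicate 2 to 62514 and 64923 in the WT libraries, with 38016 to 48755 in the other 4. An open promoter is one with at least 1 bp of a called peak within 1 kb of a start site, and a closed one has no called peak, which does not mean that it has no signal. In a bulk assay a shift in the share of cells with an open site cannot be told apart from a shift in openness per cell. All 10 promoters of the list for HEK293T, EZH2 included, were open in all 8 libraries, as were 59.2% of all coding genes. The list also holds genes that are not particular to this line, such as GAPDH and ACTB. Of the markers of other lineages given here, ALB, CD3E, INS and PTPRC were open in no library, while MYOD1 was open in all 8.

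Sequences of 6 members are shown because their states span those found among the 43 genes. Each line gives the 250 bases upstream of the RefSeq start site (GRCh38.p14), in the sense of the gene, and capitals mark 3 short motifs found on either strand. The motifs were the GC box, searched as GGGCGG, the CCAAT box, searched as CCAAT, and the TATA box, searched as TATAAA. In this order they occurred in 42.6%, 32.0% and 10.7% of the 35116 RefSeq sequences of the same length. The WNT7A sequence (chr3:13880072-13880321, minus strand) was covered by peaks over all 250 bases in both WT libraries and over none in the other 6. The WNT4 sequence (chr1:22143098-22143347, minus strand) was covered in part or in full in 6 libraries and in neither Y641F library. The WNT16 sequence (chr7:121328750-121328999, plus strand) was touched by a peak only in H689A/F667I replicate 2, over 129 bases. ROR1 (chr1:63773767-63774016, plus strand) and FZD8 (chr10:35642297-35642546, minus strand) were covered in all 8 libraries, and WNT8B (chr10:100462759-100463008, plus strand) in none. The WNT8B sequence holds 3 CpG and the others between 17 and 40.
WNT7A: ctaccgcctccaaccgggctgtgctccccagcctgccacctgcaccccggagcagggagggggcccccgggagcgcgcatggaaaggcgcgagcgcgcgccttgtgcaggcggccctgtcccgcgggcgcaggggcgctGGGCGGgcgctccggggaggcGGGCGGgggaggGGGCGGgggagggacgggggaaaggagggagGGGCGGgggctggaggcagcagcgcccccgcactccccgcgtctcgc
WNT4: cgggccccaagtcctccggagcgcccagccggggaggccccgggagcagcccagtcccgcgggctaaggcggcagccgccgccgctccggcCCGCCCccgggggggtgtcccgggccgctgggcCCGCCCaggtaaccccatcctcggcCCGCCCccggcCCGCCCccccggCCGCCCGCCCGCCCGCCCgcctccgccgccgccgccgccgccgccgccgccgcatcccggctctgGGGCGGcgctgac
WNT16: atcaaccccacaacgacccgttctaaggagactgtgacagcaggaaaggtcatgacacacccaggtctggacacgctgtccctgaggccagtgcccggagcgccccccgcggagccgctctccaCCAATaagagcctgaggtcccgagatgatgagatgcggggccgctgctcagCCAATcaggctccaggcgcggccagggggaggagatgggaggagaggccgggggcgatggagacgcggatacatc
ROR1: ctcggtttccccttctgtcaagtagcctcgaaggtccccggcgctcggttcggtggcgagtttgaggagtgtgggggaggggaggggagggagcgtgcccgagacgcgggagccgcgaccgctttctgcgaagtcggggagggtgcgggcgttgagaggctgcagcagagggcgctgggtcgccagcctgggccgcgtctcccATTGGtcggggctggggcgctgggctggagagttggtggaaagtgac
FZD8: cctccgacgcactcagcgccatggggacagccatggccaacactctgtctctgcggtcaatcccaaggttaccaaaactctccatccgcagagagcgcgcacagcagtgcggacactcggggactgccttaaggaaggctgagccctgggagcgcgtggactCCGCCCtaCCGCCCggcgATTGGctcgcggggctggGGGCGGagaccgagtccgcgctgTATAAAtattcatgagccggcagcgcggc
WNT8B: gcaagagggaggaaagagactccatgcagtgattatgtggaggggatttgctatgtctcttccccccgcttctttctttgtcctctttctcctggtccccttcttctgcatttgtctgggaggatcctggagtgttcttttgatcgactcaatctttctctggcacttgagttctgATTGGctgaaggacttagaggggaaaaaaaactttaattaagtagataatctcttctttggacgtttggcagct

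In Y641F replicate 1, 5 of 19 ligand promoters and none of 6 promoters of the SFRP family with WIF1 were open, against 8 of 10 Frizzled promoters. Of the 43 members, 18 (41.9%) had an open promoter in all 8 libraries, 21 (48.8%) in some, and 4 (9.3%) in none. Over all protein-coding genes the same 3 shares were 59.2%, 18.5% and 22.3%, so the intermediate kind had a larger share among members. Open member promoters numbered 37 and 38 in WT, 19 and 32 in Y641F, 32 and 36 in the A677G line, and 36 and 38 in that with H689A/F667I. Y641F replicate 1 lay below every other library and the other 7 ranged from 32 to 38. In percent of genes, Y641F replicate 1 had 44.2% of members open against 60.7% of all coding genes, whereas each other library had a higher share among members than among all genes. WT peaks at member promoters were weaker in median than those at all promoters. The median −log10 p of member promoters in WT was 8.27 against 11.5 for all coding genes, and the median fold enrichment, the ratio of pileup to local background, was 3.88 against 4.28.

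**Figure D1:**
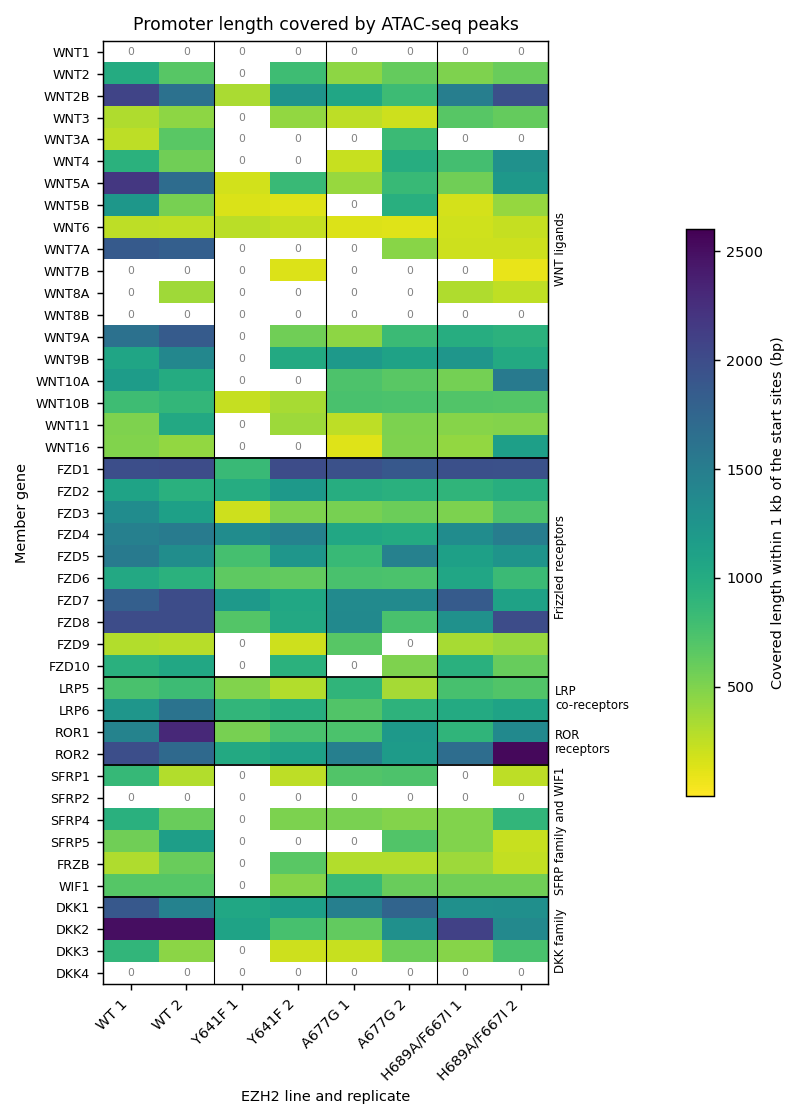
Length of promoter covered by peaks (bp, colour) for each of the 43 members (rows, by class) in each of the 8 libraries (columns, replicate number after the line). White cells with 0 mark promoters without a peak; they are concentrated in the column of Y641F replicate 1 and in the rows of the WNT ligands and the SFRP family.

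**Figure D2:**
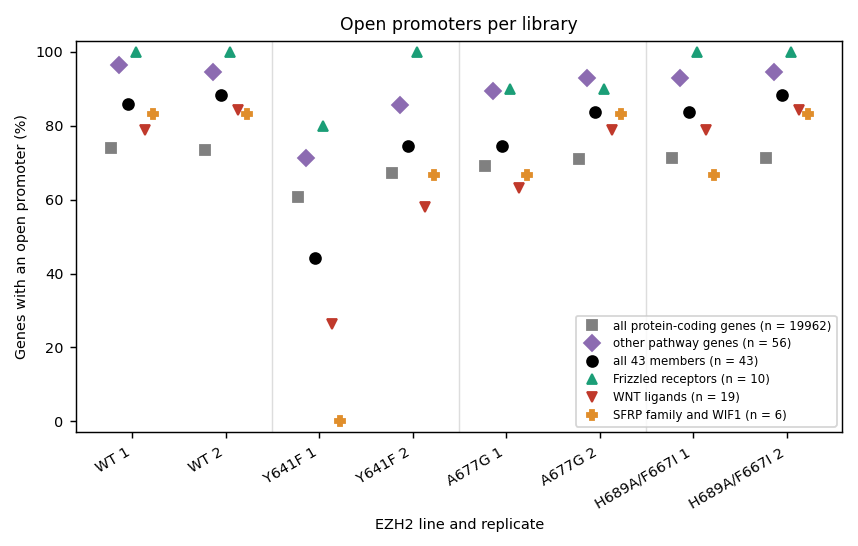
Percent of genes with an open promoter (y axis) in each library (x axis), for 6 sets of genes. In Y641F replicate 1 the WNT ligands stood at 26.3% and the SFRP family with WIF1 at 0.0%, while the Frizzled receptors stood at 80.0% and all coding genes at 60.7%.

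Among the 19 WNT ligands, 15 and 16 promoters were open in the WT libraries, 5 and 11 in Y641F, 12 and 15 in the A677G line, and 15 and 16 in that with H689A/F667I. A promoter was counted as lost in a mutant when both WT libraries had a peak and both mutant libraries had none. In Y641F 6 of the 37 members open in both WT libraries were lost (16.2%, background 6.72% of 14352 coding genes), and 5 of these were ligands, out of 15 ligands open in WT. In A677G none of the 37 was lost (background 2.24%), and in H689A/F667I 1 was lost (2.7%, background 1.53%). No member was open in both libraries of a mutant and closed in both WT libraries. The list was chosen with earlier results of these data known, and no test over it was made.

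WNT7A, a ligand with roles in limb and nerve development, had the longest WT cover of the 6. Its covered promoter length was 1861 and 1817 bp in WT, 0 and 0 bp in Y641F, 0 and 462 bp in A677G, and 200 and 200 bp in H689A/F667I. All 6 mutant libraries lay below both WT libraries, the LOF line included, so shorter cover at WNT7A was seen in the LOF line too. In both Y641F libraries the nearest peak lay over 15 kb upstream of the start site, at 15257 and 15255 bp.

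WNT4, which drives tubule formation in the kidney, was covered over 941 and 563 bp in WT, 0 and 0 bp in Y641F, 223 and 984 bp in A677G, and 781 and 1290 bp in H689A/F667I. WNT10A, a ligand of skin and tooth development, was covered over 1164 and 1003 bp in WT, 0 and 0 bp in Y641F, 727 and 668 bp in A677G, and 548 and 1543 bp in H689A/F667I. In both genes the 2 Y641F libraries were below all others, and the A677G libraries overlapped with those of WT or H689A/F667I. The nearest Y641F peaks to a WNT4 start site lay 1813 and 2031 bp away. WNT3A, a widely used activator of β-catenin signalling, was covered over 258 and 666 bp in WT, 827 bp in A677G replicate 2 and 0 bp in the other 5 libraries. It was the 1 member lost in H689A/F667I, and it differed between the 2 A677G libraries. The 6 lost members had WT peaks of median fold 3.27 and median −log10 p 5.52, against 3.92 and 8.54 for the other 31. Over all coding genes the same values were 3.39 and 5.39 for lost and 4.34 and 12 for the remaining promoters, so lost promoters had the weaker WT peaks in median in both sets.

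WNT16, a ligand of bone and blood development that the study names as a shared GOF target, was closed in Y641F at its promoter but not beside it. Its promoter cover was 491 and 424 bp in WT, 0 and 0 bp in Y641F, 127 and 499 bp in A677G, and 422 and 1130 bp in H689A/F667I. The merged region chr7:121328871-121330784, which spans a start site at 121329000 and the sequence downstream of it, was nonetheless open in all 8 libraries. In it the peak was 1275 and 1184 bp long in WT, 478 and 333 bp in Y641F, 839 and 1116 bp in A677G, and 1013 and 1496 bp in H689A/F667I. The Y641F peaks began 1111 and 1318 bp downstream of the start site, just outside the 1 kb window, while those of WT began at 510 and 577 bp. Thus the region was shorter in both Y641F libraries than in the other 6, and the promoter counted as lost because of where the window ends. With a window of 2 kb the lost members in Y641F were 4 of 38, namely WNT3A, WNT7A, WNT10A and SFRP5. The background of 6.72% belongs to the 1 kb window and does not apply to this count. The fold enrichment of the WNT16 region was 3.52 and 3.72 in WT, 3.03 and 3.09 in Y641F, 3.33 and 3.08 in the A677G line, and 3.67 and 3.29 in that with H689A/F667I. The log2 difference of Y641F from WT was -0.24 (SE 0.11), with an adjusted p of 0.173 in limma, so no change of fold was called. A second WNT16 region, in an intron 7493 bp from the nearest start site, was open in both WT, both A677G and both H689A/F667I libraries and in neither Y641F library. Since the study chose its GOF targets, WNT16 and ROR1 among them, partly on these libraries, their values are not independent evidence.

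The other ligands split into those open throughout and those that were closed in single libraries. WNT2B, WNT5A, WNT6 and WNT10B were open in all 8. WNT2, WNT3, WNT9A, WNT9B and WNT11 were each closed in Y641F replicate 1 and open in the other 7, and in Y641F replicate 2 they covered 379 to 1026 bp. At WNT9A the window again set the call, since Y641F replicate 1 had a peak from 1083 to 1282 bp downstream of the start site and the merged region was open in all 8 libraries. At WNT11 its nearest peak lay 1533 bp downstream, and at WNT2, WNT3 and WNT9B it lay at least 11488 bp away. Part of the WNT3 window is shared with WNT9B. WNT5B was closed in A677G replicate 1 alone. WNT5A, a ligand of ROR2, was covered over 2182 and 1679 bp in WT, 177 and 837 bp in Y641F, 398 and 847 bp in A677G, and 566 and 1211 bp in H689A/F667I. All 6 mutant libraries lay below WT, and GOF and LOF libraries overlapped. WNT6 was short and even, at 124 to 267 bp in the 8 libraries. WNT8A was open in WT replicate 2 and both H689A/F667I libraries only, over 251 to 376 bp. WNT7B had a peak in every library whose near end lay 864 to 1519 bp upstream of a start site, so that the window held it in Y641F replicate 2 and H689A/F667I replicate 2 alone. WNT1 and WNT8B were closed in all 8, with the nearest peak at least 6313 bp away for WNT1 and 7843 bp for WNT8B.

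**Figure D3:**
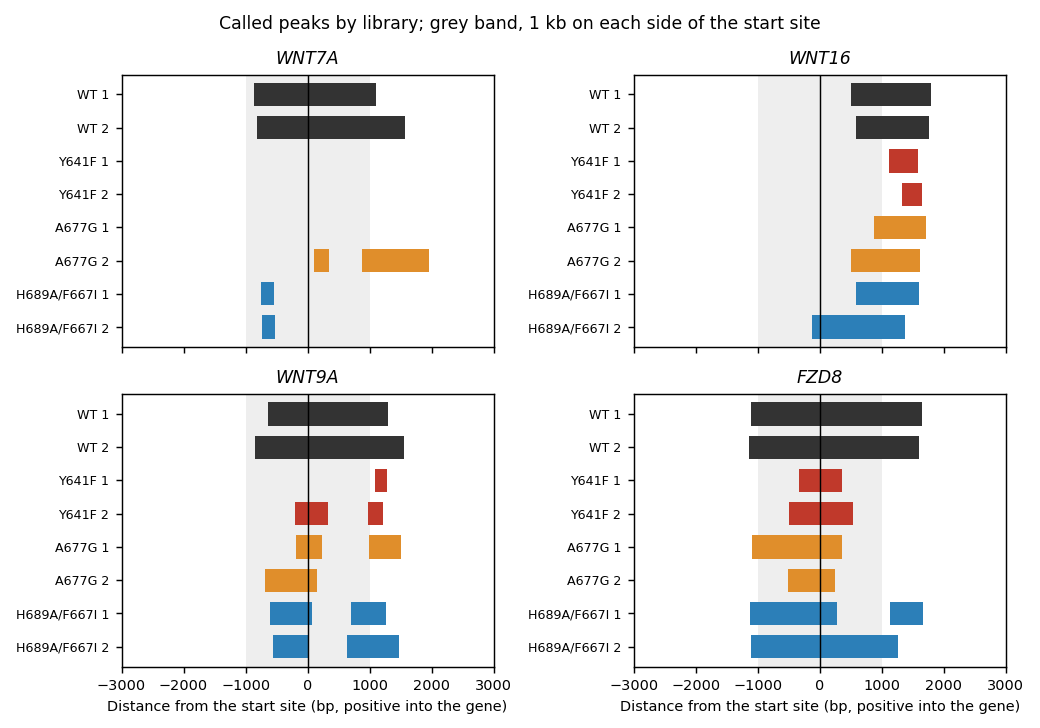
Called peaks (bars) around a start site of WNT7A, WNT16, WNT9A and FZD8 in each library, by distance from the start site (bp). At WNT16 the Y641F peaks begin at 1111 and 1318 bp, beyond the grey band of 1 kb, and at FZD8 the peaks shorten around the start site from 2753 and 2734 bp in WT to 701 and 1031 bp in Y641F.

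The WT libraries had 10 of 10 Frizzled promoters open, Y641F 8 and 10, A677G 9 and 9, and H689A/F667I 10 and 10, and 8 genes were open in all 8 libraries. None of the 10 was lost in any mutant. FZD9 was covered over 301 and 277 bp in WT, 0 and 200 bp in Y641F, 676 and 0 bp in A677G, and 345 and 398 bp in H689A/F667I. FZD10 was covered over 951 and 1038 bp in WT, 0 and 940 bp in Y641F, 0 and 499 bp in A677G, and 954 and 601 bp in H689A/F667I. In both genes 1 library of each GOF line had no peak and the other did. FZD1, FZD3, FZD4, FZD5, FZD6, FZD7 and FZD8 were open throughout, and the lowest cover in each Y641F library was 200 bp and 501 bp, both at FZD3. FZD2 kept 900 to 1209 bp in all 8 libraries, and its groups overlapped.

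The co-receptors and ROR receptors each had at least 1 open start site in all 8 libraries, though not always the same one. ROR1, a receptor best known from embryonic tissue and some tumours, was covered over 1439 and 2300 bp in WT, 536 and 747 bp in Y641F, 732 and 1203 bp in A677G, and 895 and 1371 bp in H689A/F667I. Both Y641F libraries were below the WT and LOF libraries, and A677G replicate 2 lay within the H689A/F667I range. The mean over the 4 GOF libraries was 804.5 bp and that over the 4 WT and LOF libraries 1501 bp (p = 0.0571, exact two-sided permutation test). That test treats libraries of the same line as independent, although each genotype is 1 line, so its p does not cover the spread between lines. The fold of the ROR1 promoter region was 3.61 and 4.30 in WT and 5.61 and 4.37 in Y641F, so a shorter peak came with a fold that was not lower. LRP5 has 7 annotated start sites, and its promoter cover of 751 and 819 bp in WT, 492 and 296 bp in Y641F, 902 and 353 bp in A677G, and 755 and 711 bp in H689A/F667I sums over them. The region near its 5′ end, chr11:68313231-68313876, was covered over 435 and 610 bp in WT, with a fold of 2.59 and 2.42, and over 0 bp in all 6 mutant libraries. The region at a start site far downstream, chr11:68446858-68447625, was covered over 316 and 401 bp in WT, 492 and 296 bp in Y641F, 510 and 353 bp in A677G, and 755 and 711 bp in H689A/F667I. All of the Y641F cover of LRP5 thus came from the downstream region. Counted at the 5′ end of the gene alone, LRP5 was lost in Y641F and in H689A/F667I and not in A677G.

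A promoter region was likewise closed in both Y641F libraries at ROR2 (chr9:91775307-91775786, fold 3.98 and 3.66 in WT) and at WNT5B (chr12:1629587-1630373, fold 2.87 and 2.67 in WT), while another start site of each gene stayed open. The ROR2 region was open in A677G replicate 1 and both H689A/F667I libraries, and the WNT5B region in A677G replicate 2 and neither H689A/F667I library.

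Among the secreted antagonists, the SFRP family and WIF1 differed between the Y641F libraries. Of these 6 genes 5 were open in each WT library, 0 and 4 in Y641F, 4 and 5 in the A677G line, and 4 and 5 in that with H689A/F667I. SFRP5 was the member lost in Y641F, with 569 and 1142 bp in WT, 0 and 0 bp in Y641F, 0 and 709 bp in A677G, and 498 and 220 bp in H689A/F667I. SFRP4, FRZB and WIF1 were closed in Y641F replicate 1 alone and covered 472 to 664 bp in Y641F replicate 2. SFRP1 was closed in Y641F replicate 1 and in H689A/F667I replicate 1. SFRP2 had no promoter peak in any library, but an exonic region 6217 bp from its start site was open in 7 of 8. Of the DKK genes, DKK1 and DKK2 were open in all 8, DKK3 was closed in Y641F replicate 1 alone, and DKK4 was closed in all 8.

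Peak number moved with these counts. Y641F replicate 1 had the fewest peaks and the fewest open members, 19 against 32 in Y641F replicate 2. The 6 lost members were those closed in Y641F replicate 2 as well, and counting on Y641F replicate 1 alone would give 18 lost of 37 (background 16.2%). When each library was limited to its 26350 strongest peaks, 22 members stayed open in both WT libraries and 1, DKK3, was lost in Y641F (background 2.17%). Among peaks past a −log10 q of 5, 9 of 18 were lost (background 29.5%), and none of these was among the 6. The part of peak number in the counts was not tested. The A677G count rested on replicate 2 in the same way, since 5 members (WNT3A, WNT5B, WNT7A, FZD10 and SFRP5) would be lost without it. Leaving out a library can only raise the number lost, in all genes as in members. These 5 are therefore not set against a background.

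Among promoters with a peak in both WT libraries, cover was shorter in median in each mutant than in WT. Genes entered this comparison through their WT peaks, which favours shorter cover in the mutants in advance. The ratios are therefore a description, given beside those of all coding genes chosen in the same way. Among members open in both WT libraries, the median ratio of covered length to WT came to 0.37 for Y641F, 0.657 for A677G and 0.821 for the LOF line, against 0.643, 0.776 and 0.855 for all coding genes. In Y641F the median ratio was 0.246 for the ligands, 0.618 for the Frizzled receptors, 0.332 for the SFRP family with WIF1 and 0.37 for the DKK genes. Of 39 members with any cover, 6 had shorter cover in every GOF library than in every WT and LOF library, which is 15.4%, the same as the background of 15.4% of 15509 genes, so the share of members was that of all genes. None had longer cover in every GOF library (background 0.0193%). For each of the 6 the exact two-sided permutation test gave p = 0.0286, not adjusted over genes and the smallest that 4 against 4 libraries allows. This value follows from the non-overlap by which the 6 were picked, so it adds no support. The test also treats libraries of the same line as independent, although each genotype is 1 line.

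The 6 were WNT2B, WNT9A, FZD6, LRP6, ROR2 and DKK2. DKK2, an antagonist of LRP5 and LRP6, was covered over 2502 bp in both WT libraries, which is its whole window, and over 1097 and 754 bp in Y641F, 623 and 1300 bp in A677G, and 2101 and 1376 bp in H689A/F667I. WNT2B was covered over 2065 and 1633 bp in WT, 327 and 1250 bp in Y641F, 1064 and 822 bp in A677G, and 1492 and 1969 bp in H689A/F667I. WNT9A was covered over 1634 and 1851 bp in WT, 0 and 565 bp in Y641F, 441 and 825 bp in A677G, and 980 and 930 bp in H689A/F667I. In DKK2 the groups came close, at 1300 bp in A677G replicate 2 and 1376 bp in H689A/F667I replicate 2.

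ROR2, a receptor for WNT5A, was covered over 1972 and 1713 bp in WT, 1019 and 1117 bp in Y641F, 1481 and 1172 bp in A677G, and 1672 and 2541 bp in H689A/F667I. LRP6 was covered over 1236 and 1615 bp in WT, 888 and 967 bp in Y641F, 706 and 919 bp in A677G, and 1009 and 1096 bp in H689A/F667I. FZD6, a receptor of planar polarity, was covered over 1032 and 937 bp in WT, 645 and 623 bp in Y641F, 746 and 732 bp in A677G, and 1064 and 830 bp in H689A/F667I. The mean difference between GOF and the WT and LOF libraries ran from -279 bp in FZD6 to -1177 bp in DKK2. The count of 6 ran from 6 to 14 when single libraries were left out, with 14 without A677G replicate 2, 13 without H689A/F667I replicate 1 and 10 without Y641F replicate 2. Leaving out a library can only make non-overlap easier, for any gene. The background from all 8 libraries therefore does not apply to these counts. With equal peak numbers the count was 2 (FZD6 and LRP6).

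Fold enrichment could be tested in the 32 member regions that were open in all 8 libraries, among 18787 such regions, by limma on the log2 scale with adjustment over all of them. In Y641F against WT 4 member regions passed an adjusted p of 0.05, 2 higher (background 0.405%) and 2 lower (background 5.61%). In A677G and in H689A/F667I none passed, with a background of 0.0% in each direction, and in GOF against WT and LOF none passed (background 0.0745% higher and 1.37% lower). At an unadjusted p under 0.05 there were 11 of the 32 member regions for Y641F, 6 for A677G, 3 for the LOF line and 8 for GOF. Over all 18787 regions the counts were 5062, 2906, 1714 and 4207 in the same order. These contrasts share the WT libraries. The median log2 difference over all regions in Y641F was -0.12, and when each library was centred on its median fold no region passed in any contrast, with 3940 regions at an unadjusted p under 0.05 in Y641F. The 4 calls in Y641F also disappeared on leaving out WT replicate 1, WT replicate 2 or Y641F replicate 1, as did the calls over all regions. Each of these fits leaves 1 library in a group. With single libraries left out, the log2 difference in Y641F was 0.41 to 0.64 in FZD1 and 0.48 to 0.59 in FZD8. It was -0.54 to -0.43 in WNT10B and -0.71 to -0.51 in WNT2B.

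FZD8, a WNT receptor gene without introns, rose in fold. Its region chr10:35640637-35643432 had a fold of 3.07 and 3.05 in WT, 4.62 and 4.27 in Y641F, 3.95 and 4.82 in the A677G line, and 3.91 and 3.74 in that with H689A/F667I. Both WT libraries were lowest and all 6 mutant libraries, LOF included, were higher. The log2 difference in Y641F was 0.54 (SE 0.12, limma adjusted p = 0.0342), or 0.69 after centring (adjusted p = 0.052). The covered length went the other way, at 2753 and 2734 bp in WT, 701 and 1031 bp in Y641F, 1455 and 747 bp in A677G, and 1937 and 2370 bp in H689A/F667I. The fold given for a broad peak is a mean over its length, and the part of peak length in the rise was not tested. With length in place of fold the log2 difference in Y641F was -1.69.

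FZD1 had a fold of 3.72 and 4.12 in WT, 6.11 and 5.20 in Y641F, 4.58 and 4.61 in the A677G line, and 5.12 and 4.18 in that with H689A/F667I. Both Y641F libraries were above the other 6. The log2 difference was 0.53 (SE 0.13, limma adjusted p = 0.0421), or 0.68 after centring (adjusted p = 0.0523). Here the region was covered over 839 bp in Y641F replicate 1 but 2090 bp in Y641F replicate 2, close to the 2048 and 2061 bp of WT, so a shorter peak went with the higher fold in 1 of the 2 libraries.

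WNT10B, a ligand of bone and fat development, fell in fold. Its region chr12:48971120-48972009 had a fold of 3.95 and 3.82 in WT, 2.89 and 2.67 in Y641F, 3.18 and 3.44 in the A677G line, and 3.36 and 3.42 in that with H689A/F667I. WT was highest and Y641F lowest with no overlap, and the log2 difference was -0.48 (SE 0.10, limma adjusted p = 0.0327), or -0.33 after centring (adjusted p = 0.12). Its covered length was 805 and 876 bp in WT, 232 and 346 bp in Y641F, and 692 to 752 bp in the other 4. WNT2B fell as well, with a fold of 5.66 and 4.93 in WT, 3.62 and 3.30 in Y641F, 3.77 and 5.22 in the A677G line, and 3.70 and 4.53 in that with H689A/F667I. Both Y641F libraries were below the other 6, and the log2 difference was -0.61 (SE 0.16, limma adjusted p = 0.0478), or -0.46 after centring (adjusted p = 0.144).

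**Figure D4:**
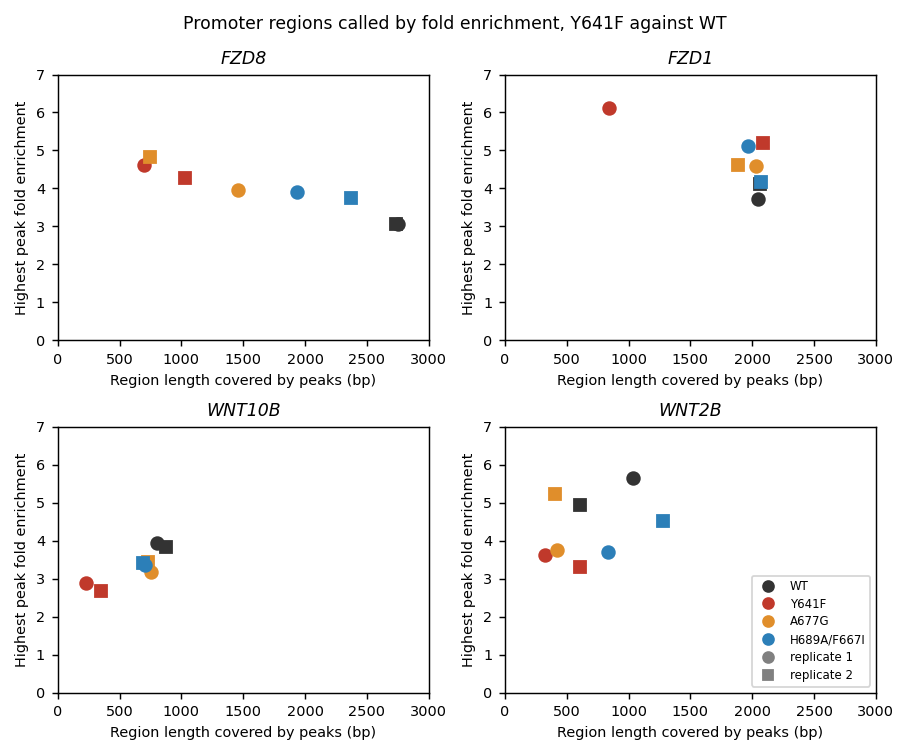
Highest fold enrichment (y axis) against the length of the region covered by peaks (x axis, bp) for the promoter regions of FZD8, FZD1, WNT10B and WNT2B, 1 point per library. In FZD8 the shortest peaks have the highest fold, and in WNT10B both Y641F libraries are lowest on both axes.

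In the contrast of GOF with WT and LOF, the member regions with the largest differences did not pass. FZD8 had a log2 difference of 0.36 (SE 0.083, limma adjusted p = 0.0549) and LRP5 of -0.33 (SE 0.098, limma adjusted p = 0.0925). LRP5 fold was 4.76 and 5.31 in WT, 3.51 and 3.80 in Y641F, 3.98 and 3.22 in the A677G line, and 3.69 and 4.56 in that with H689A/F667I. The 4 GOF libraries of LRP5 were not all below the LOF ones, since Y641F replicate 2 and A677G replicate 1 exceeded H689A/F667I replicate 1. The other 8 of the 10 largest were ROR2 (intron), WNT10B, FZD1, WNT2B, ROR1 (intron and promoter), WNT7B and WNT16, between -0.28 and 0.26.

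Outside the promoters, member genes held 56 regions open in at least 2 libraries, 38 of them open in both WT libraries. In Y641F 20 were lost (52.6%, background 45.5% of 32978 regions), with 8 in A677G (21.1%, background 27.9%) and 8 in the LOF line (21.1%, background 19.1%). The member shares stood near the background in each mutant in this setting. In Y641F the share of members was above it at equal peak numbers, with 6 of 13 lost (46.2%, background 19.9%), and among peaks past a −log10 q of 5, with 9 of 11 (81.8%, background 58.6%), both on few regions. Regions in introns were covered in 41 and 40 of 50 cases in WT, 13 and 21 in Y641F, 26 and 29 in the A677G line, and 26 and 32 in that with H689A/F667I. By comparison 47 promoter regions were covered in 46 and 46 cases in WT and 22 and 36 in Y641F. A region entered when open in at least 2 libraries, so peaks in the WT libraries alone sufficed. This can favour lower counts in the mutants in advance. The same counts over all intronic or promoter regions were not computed.

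ROR2 held 12 of these regions and ROR1 held 8, both being very long genes. Of 10 ROR2 regions open in both WT libraries, Y641F had lost 6, A677G 1 and H689A/F667I 3. Of 7 in ROR1, Y641F had lost 4 and the other mutants 1 each. The background for regions outside promoters was 45.5% with Y641F, 27.9% with A677G and 19.1% with the LOF line. The ROR counts rest on only 10 and 7 regions and were not tested against this background. The ROR1 promoter stayed open in all 8 libraries, as did 2 of its introns' regions, at chr1:64039351-64039994 and chr1:64171954-64173589. Of the ROR2 regions, chr9:91659593-91660169 had the highest WT fold, 5.73 and 6.0, no peak in Y641F, 4.34 and 4.23 in the A677G line, and 4.45 and 3.64 in that with H689A/F667I. This peak was not called in either Y641F library and was lower in the other mutants. It was picked for its high WT fold, which favours lower values in the mutants in advance.

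**Figure D5:**
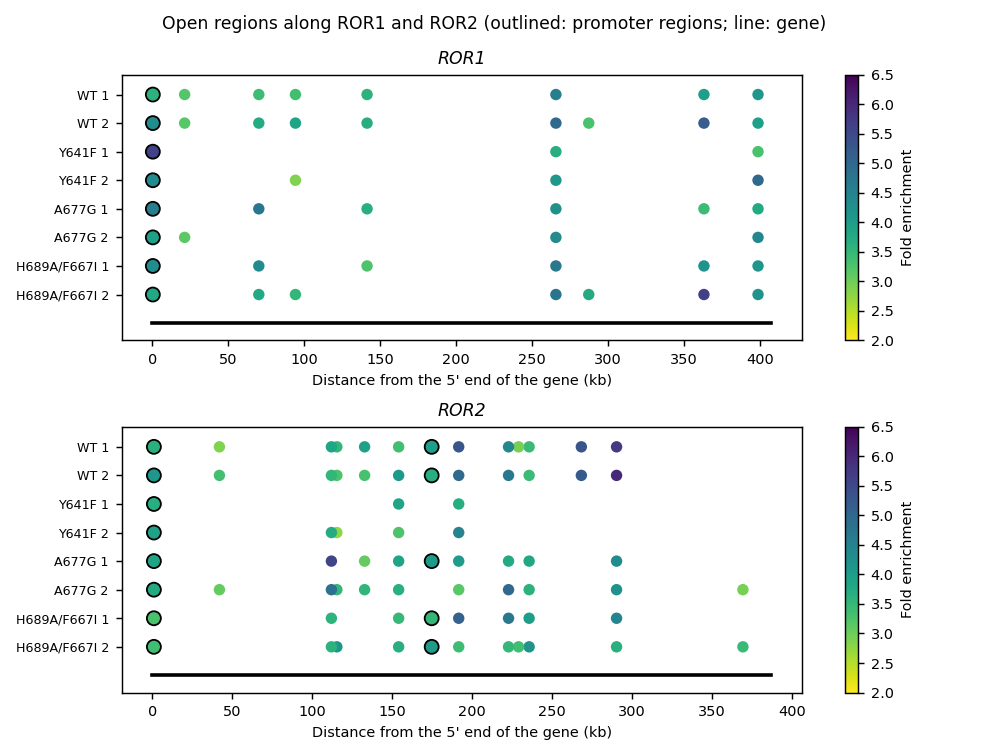
Open regions (points) along ROR1 and ROR2 in each library, by distance from the 5′ end of the gene (kb), coloured by fold enrichment. Outlined points are promoter regions and the black line is the gene. Outside promoters Y641F replicate 1 has 2 points in each gene, against 7 and 8 in WT for ROR1 and 11 and 10 for ROR2.

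Of these gene-body regions 5 were lost in both GOF lines, besides the LRP5 promoter region described with the co-receptors. They lay in introns of ROR2 (chr9:91681779-91682045), WNT4 (chr1:22133493-22134139), WNT5B (chr12:1566577-1566798) and WNT7B (chr22:45934497-45935115), and in an exon of WNT10B (chr12:48965425-48965791). The WT folds were 5.33 and 5.24 in ROR2, 4.38 and 3.80 in WNT10B, 3.71 and 5.08 in WNT5B, 2.77 and 2.81 in WNT7B, and 2.52 and 2.39 in WNT4. The 4 intronic ones were also lost in H689A/F667I, and the WNT10B region had a fold of 4.75 in H689A/F667I replicate 1 and no peak in replicate 2. None of the 5 was therefore open in both LOF libraries. The share of all regions lost in both GOF lines was not computed, so the count of 5 has no background. WNT8B, whose promoter was closed throughout, had an exonic region (chr10:100481538-100482958) open in all 8 libraries with folds of 3.35 to 4.09.

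Of 56 other genes of the pathway, such as R-spondins, polarity genes and the β-catenin destruction complex, 54 and 53 promoters were open in WT, 40 and 48 in Y641F, 50 and 52 in the A677G line, and 52 and 53 in that with H689A/F667I. In Y641F 5 of the 53 open in both WT libraries were lost (9.43%, background 6.72%), in A677G 1 (1.89%, background 2.24%) and in H689A/F667I 0 (background 1.53%). ZNRF3, a ligase that removes Frizzled receptors from the surface, was covered over 2543 and 2590 bp in WT, 0 bp in all 4 GOF libraries, and 1249 and 1192 bp in H689A/F667I. It was the 1 gene of both lists closed in all 4 GOF libraries and open in all 4 others. The share of all coding genes with this pattern was not computed, so this count has no background. The other 4 were RSPO1, an agonist ligand (612 and 321 bp in WT), VANGL2, a polarity protein (1245 and 1109 bp), AXIN1, a scaffold of the destruction complex (1925 and 1392 bp), and PYGO1, a β-catenin cofactor (1079 and 1031 bp), each with 0 bp in both Y641F libraries. VANGL2 and AXIN1 were open in both A677G libraries, and RSPO1 and PYGO1 in A677G replicate 2 alone. Covered length was shorter in every GOF than in every WT and LOF library in 10 of 54 (18.5%, background 15.4%).

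The sequence around the annotated 5′ end of the gene, from 250 bases before to 50 after, was read from hg38 for all 43 members, and is not always the start site nearest to the peak. Members were richer in GC than coding genes at large, with a median of 67.3% against 60.3%, and ranged from 30.0% in SFRP4 to 86.7% in LRP5. The median ratio of observed to expected CpG was 0.858 for members open in all 8 libraries, 0.694 for those open in some and 0.455 for those open in none. Over all coding genes the medians were 0.806, 0.571 and 0.257, in the same order. GGGCGG was present on either strand in 28 of 43 members (65.1%, against 52.4% of all coding genes), CCAAT in 19 (44.2%, against 35.9%), TATAAA in 6 (14.0%, against 10.8%) and CTTTGA, a core of the TCF motif, in 6 (14.0%, against 11.7%). CCAAT was present in 7 of 10 Frizzled genes and 6 of 19 ligands. A match in these windows is a description and not a binding site.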

How the data were processed

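ATAC-seq was profiled in 4 HEK293T lines with 2 libraries each, grouped by the sample titles. The authors trimmed reads with Trim Galore 0.6.5, aligned them to hg38 with BWA 0.7.17 and called broad peaks per library with MACS2 2.2.7.1. The deposited fold is the ratio of pileup to background over a peak, and the deposited −log10 p and −log10 q (columns of p-value and q-value) are those of MACS2. The deposited score, an integer form of the q-value, was not used. Read shifting and depth are not given in the sources used here. The study's differential test used read counts, which are not analysed here, and was replaced.

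Peaks were assigned with Python 3.11.15 (numpy 2.4.6, pandas 2.3.3) to promoters, within 1 kb of any GENCODE 44 start site, and to regions merged over libraries where peaks shared at least 1 bp and were open in at least 2. The log2 of the highest fold in regions open in all 8 was fitted with limma 3.58.1 (R 4.3.3), with Benjamini-Hochberg adjustment. Covered lengths were compared with exact permutation tests. Members and lists were chosen with earlier results of these data known. Named are WNT16 and ROR1, members open in some libraries, the 10 largest fold differences between GOF and other libraries, the non-overlapping covered lengths, and gene-body regions lost in both GOF lines. Of other pathway genes, those lost in a mutant are named. Other genes mentioned, such as SFRP2 and FZD2, were chosen after their values were seen. The fit and the promoter states were tested on simulated data. RefSeq promoter sequences were found for 30 of 43 members. One of the lineage markers examined is not reported here.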

Additional observations from a re-analysis of the deposited data

Results flagged for a closer look

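In the SFRP family with WIF1, H689A/F667I replicate 1 had 4 open promoters while the WT libraries and H689A/F667I replicate 2 each had 5, which made it stand apart among these 4 libraries. In the DKK family, Y641F replicate 1 had 2 open promoters and the other 3 GOF libraries 3 each. Both are gaps of 1 gene, and 12 groups of libraries were examined in this way. Where 3 of 4 counts are equal, any gap of 1 gene stands apart.

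WNT3 had a longer promoter cover in both H689A/F667I libraries than in WT (676 and 618 bp against 311 and 438 bp) and a shorter one in both A677G libraries (257 and 200 bp), and the means of the mutants differed by 418.5 bp. FZD9 was longer in both H689A/F667I libraries than in WT (345 and 398 bp against 301 and 277 bp) and shorter in both Y641F libraries (0 and 200 bp), a difference of 271.5 bp. These differences between mutants were not tested. They came from 129 comparisons of a gene between 2 mutants, and 96 comparisons of fold in a region gave no such case.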

How the results depend on the processing

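Of 215 alternative values, 142 kept their direction and their side of the threshold or stayed within the set range, and 40 moved, 31 lost a call and 2 reversed. The replicate numbers do not pair the libraries (correlations of deviations from -0.016 to 0.037), and with the replicate number as a block 3 member regions were called in Y641F (60 higher and 912 lower over all regions) and WNT2B was not. For peaks past a −log10 q of 5, 6 of 18 member promoters were lost in A677G (background 15.6%) and 4 of 18 in H689A/F667I (10.6%), 1 of 26 was shorter in all GOF libraries (14.5%), 9 of 11 gene-body regions were lost in Y641F (58.6%), and 0 regions were called in Y641F. At equal peak numbers, 1 of 22 promoters was lost in Y641F (background 2.17%) and 1 in A677G (1.1%), 2 of 35 were shorter in GOF (11.3%), 6, 2 and 2 of 13 gene-body regions were lost in Y641F, A677G and H689A/F667I (19.9%, 12% and 10.3%), and 1 of 20 regions was called in GOF against WT and LOF (2.65%). With a 2 kb window 10 of 39 promoters were shorter in GOF (16.2%). With the 5′ end of the gene alone, 1 of 29 promoters was lost in A677G (2.71%), 2 in H689A/F667I (1.84%), and 3 of 33 were shorter in GOF (13.5%). With at least 200 bp covered, 1 of 37 was lost in A677G (2.31%). Centring, or regions open in at least 6 libraries, gave 0 calls in Y641F. With −log10 p in place of fold, 14 of 32 regions were called in Y641F (43.8%, background 44.6%), 1 in A677G (6.34%) and 8 in GOF (25.0%, background 25.3%), and with covered length 1 in GOF (1.93%), while FZD1 (-0.63) and FZD8 (-1.69) reversed. Leaving out 1 library gave 6 to 18 lost promoters in Y641F, 0 to 5 in A677G and 1 to 2 in H689A/F667I, 20 to 28, 12 to 13 and 10 to 12 lost gene-body regions, 6 to 14 promoters shorter in GOF, and 0 to 3 calls in Y641F. Leaving out a library can only raise the counts of lost or shorter promoters and of lost regions, in any set of genes. Some regions gave no value under the stricter settings, such as FZD8, WNT2B and WNT10B among peaks past a −log10 q of 5. The cause of these changes was not tested. Depth is unknown, so a closed promoter cannot be set against a limit of detection.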
